A study of Mus musculus with 6 samples.

Results

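The nucleoporins, the proteins that build the nuclear pore, were described at the transcript level in bone marrow progenitors that lack the O-GlcNAcase Oga. Members were taken from the deposited locus table by symbol, as Nup followed by digits, or as Nupl1, Nupl2, Pom121, Seh1l, Sec13, Rae1, Tpr, Ranbp2, Aaas or Ahctf1. This rule found 32 of the 53445 loci listed, and 31 members remained after the shorter of the repeated Nup35 loci was dropped. The rule reads symbols and locus lengths, not expression values. RNA-Seq was performed on Lin-Sca+Kit+ (LSK) cells, a bone marrow fraction that holds hematopoietic stem cells and multipotent progenitors, from female mice of C57BL/6 background at about 12 weeks of age. In OgaVav-Cre mice (3 libraries) a floxed Oga allele (Oga fl/fl) was deleted by the Vav-iCre transgene, which is active across the hematopoietic lineage, and the comparison was with wildtype mice (3 libraries). Each library came from 1 mouse and at least 20000 sorted cells. Whether the wildtype mice carried the transgene is not given in the labels.

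The nuclear pore complex is a ring-shaped channel through the nuclear envelope, made of many copies of a limited set of nucleoporins. Scaffold nucleoporins form its outer and inner rings, and nucleoporins with phenylalanine-glycine (FG) repeats fill the channel, where they bind the transport receptors that carry cargo. The FG nucleoporins are among the most heavily O-GlcNAc-modified proteins of the cell. Ogt adds the sugar to their serines and threonines and Oga removes it. The libraries measure transcripts. Nucleoporin protein and its O-GlcNAc were not measured in them.

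The FG repeats can be read directly from the coding sequence as a phenylalanine codon (TTT or TTC) followed in frame by a glycine codon (GGN). All 31 members had a coding transcript with a start codon and whole codons in the GENCODE annotation of mm9. Whether each transcript is full length was not checked. The transcript with the most such pairs held 46 in Nup214, 41 in Nup98, 29 in Nup153, 24 in Pom121, 20 in Ranbp2, 14 in Nupl1, 11 in Nupl2, 8 in Nup54 and 6 in Nup62. Nup50 and Nup210 held 5 each. These 11 members, 35.5% of the nucleoporins, had 5 or more pairs, against 4.15% of the 21637 genes with such a transcript. The other 20 members had at most 3, with only a short transcript of 322 codons available to count for Nup205. These are numbers of pairs, not scaled to length, and longer coding sequences have more room for them. Per 100 codons, Nup210 had 0.265 pairs, below the 0.92 of Nup35 and the 0.813 of Rae1, which are among the members with fewer. To show what such a region looks like, the stretch of 120 bases within 1 coding exon that holds the most pairs is printed for 4 of the FG nucleoporins known for O-GlcNAc. The sequences are from the mm9 genome on the coding strand, in frame from the first base, with the FG codon pairs in capitals. The stretch of Nup62 begins at its start codon in exon 2, at chr7:52083933-52084052 on the plus strand, and holds 2 pairs. The stretch of Nup98 lies in exon 9, at chr7:109331989-109332108 on the minus strand, and holds 5. That of Nup153 lies in exon 20, at chr13:46778514-46778633 on the minus strand, and holds 4. That of Nup214 lies in exon 29, at chr2:31890048-31890167 on the plus strand, and holds 5.
Nup62: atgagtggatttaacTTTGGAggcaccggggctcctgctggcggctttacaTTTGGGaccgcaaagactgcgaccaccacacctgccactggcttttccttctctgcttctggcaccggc
Nup98: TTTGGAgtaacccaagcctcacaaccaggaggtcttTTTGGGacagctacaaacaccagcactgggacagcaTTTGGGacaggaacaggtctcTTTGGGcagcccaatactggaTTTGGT
Nup153: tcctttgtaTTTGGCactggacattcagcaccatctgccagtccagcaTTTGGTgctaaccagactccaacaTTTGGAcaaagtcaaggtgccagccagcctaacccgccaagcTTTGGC
Nup214: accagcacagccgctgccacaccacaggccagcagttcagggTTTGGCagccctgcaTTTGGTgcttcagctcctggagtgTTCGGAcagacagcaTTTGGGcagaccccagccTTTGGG
Of the 40 codons in each stretch, 13 encode serine or threonine, the residues that can carry O-GlcNAc, in Nup62, 11 in Nup98, 10 in Nup153 and 11 in Nup214.

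The libraries held 19318056 to 27064389 counted reads. Mgea5, the locus of Oga, was at 139 ± 20.7 CPM among wildtype mice and 4.31 ± 0.299 CPM among OgaVav-Cre mice (SD, n = 3 each), where CPM are read counts after TMM scaling of the library sizes in edgeR. Ogt, which adds the sugar, had 518, 400 and 544 CPM among OgaVav-Cre mice and 594, 908 and 870 CPM among wildtype mice. Its genotypes did not overlap, with an adjusted p of 0.412 in edgeR. All 6 markers of the LSK sort were above 1 CPM in every library, and so were 9 of 11 markers of the lineage-positive cells that the sort removes and 8 of 8 plasma cell markers. The summed lineage markers ranged from 224 to 1341 CPM in OgaVav-Cre and from 269 to 662 CPM in wildtype libraries, and Ly6g was at 0 in wildtype replicate 1. The summed plasma cell markers ranged from 1740 to 12340 CPM in OgaVav-Cre and from 1810 to 8118 CPM in wildtype libraries. In such bulk libraries, fewer cells of a type and less RNA per cell cannot be told apart.

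To ask whether loss of Oga changed nucleoporin transcripts, the genotypes were compared with edgeR's quasi-likelihood test over all loci that passed its filter on low counts. Of the 31 members, 30 were tested and none passed the test. At the study's cutoffs (adjusted p under 0.05, log2 fold change past 1 either way), 0 of 30 were called, where 7 of the 22032 loci tested (0.0318%) were. At an unadjusted p below 0.05 in edgeR, 0 of 30 members were found, against 10.6% of all loci. DESeq2's Wald test, used in the study, called 0 of 31 members and 115 of 36466 loci (0.315%) at both cutoffs. At an unadjusted p below 0.05 it gave 1 of 31 members, against 6.72% of its loci, and limma-voom gave 2 of 30, against 10.9%. Neither gave a member at an adjusted p below 0.05. For 0 of 30 members did the libraries of the genotypes separate without overlap, against 17.5% of all loci. The log2 fold change, OgaVav-Cre minus wildtype, was above 0 for 17 members and below 0 for 13, where 50.5% of all loci and 56.6% of the loci with a mean of at least 10 CPM were above 0. Its median was 0.07 over the nucleoporins, 0.00 over all loci tested and 0.04 over those with at least 10 CPM.

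The size of change that these data leave room for can be read from the intervals. The 95% interval of the log2 fold change lay between -1 and 1 for 29 of 30 members, against 58.3% of all loci, and within a 1.5-fold change in either direction for 21 of 30, against 28.2% of all loci. Of the loci with a mean of at least 10 CPM, 88.5% lay within the first bound and 50.5% within the second. Most members were well covered, with a mean of at least 10 CPM in both genotypes for 28 of the 30. The exception to the first bound was Nup210l, the member with the fewest reads among those tested.

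**Figure D1:**
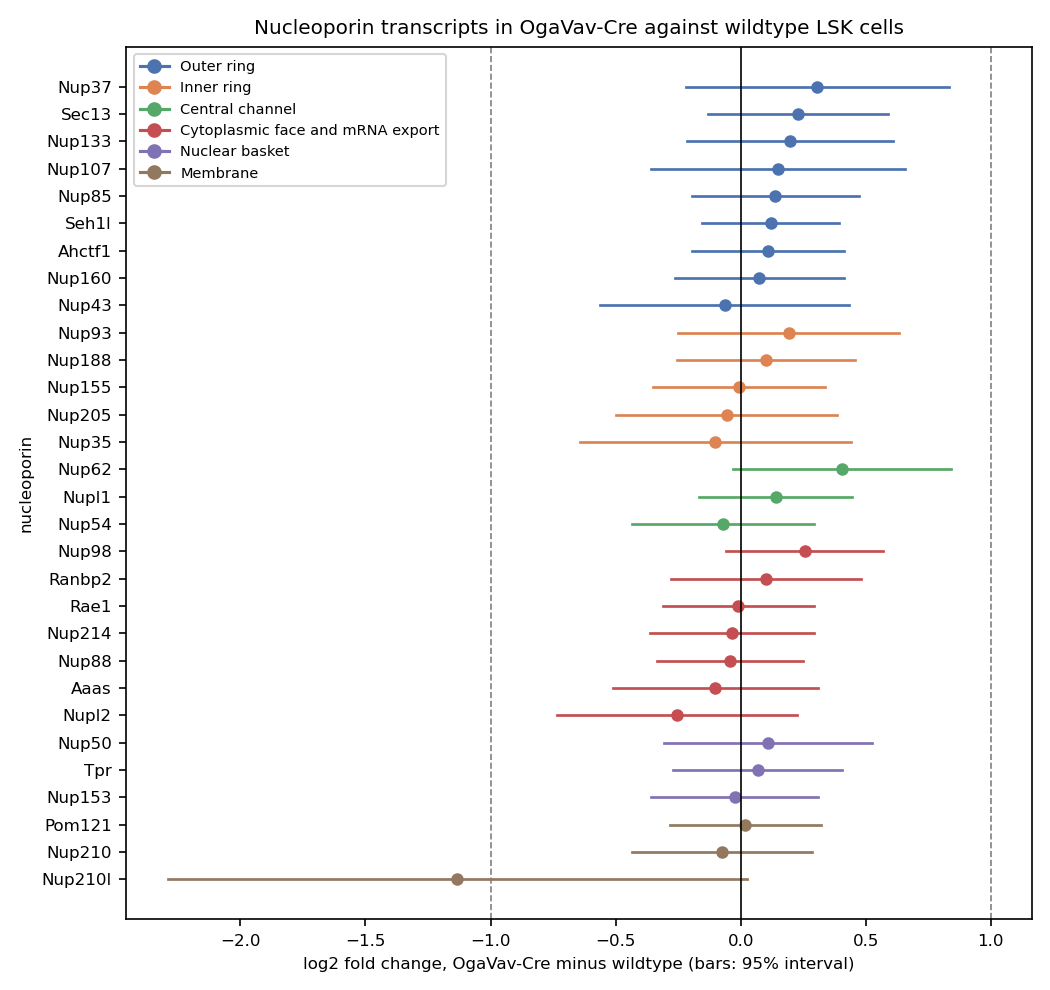
The log2 fold change of each tested nucleoporin, OgaVav-Cre minus wildtype, is plotted as a point with its 95% interval, grouped and coloured by place in the pore, with dashed lines at -1 and 1. The intervals of all 30 members include 0, and the points run from -1.13 for Nup210l to 0.41 for Nup62.

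The outer ring, or Y complex, is the scaffold that lines both faces of the pore. Of its 9 members, 8 were above 0 and 1 below, with a median log2 fold change of 0.14 and 0 at an unadjusted p below 0.05. Nup37, a peripheral subunit, had 18.0, 21.7 and 16.2 CPM among OgaVav-Cre mice and 19.9, 12.9 and 12.4 CPM among wildtype mice. Wildtype replicate 1 lay among the OgaVav-Cre libraries and the other two below them. Its log2 fold change was 0.31 (95% interval -0.22 to 0.83), with an adjusted p of 0.634 in edgeR. Sec13, which is also part of the COPII coat of secretory vesicles, had 48.7, 50.6 and 45.7 CPM against 49.95, 38.6 and 35.1 CPM, and its log2 fold change was 0.23 (-0.13 to 0.59). Nup133, which touches the membrane, had 43.1, 46.8 and 36.3 CPM against 45.2, 31.6 and 33.1 CPM, with 0.20 (-0.22 to 0.61). In both genes the same wildtype library stood with the OgaVav-Cre libraries. The log2 fold changes of the other scaffold subunits were 0.15 for Nup107 (37.6 against 33.9 CPM), 0.14 for Nup85 (58.3 against 52.9), 0.08 for Nup160 (67.3 against 63.9) and -0.06 for Nup43 (14.2 against 14.8). Seh1l, shared with the GATOR complex of nutrient signalling, had 0.12 (87.4 against 80.4 CPM). Ahctf1, also called ELYS, which brings the Y complex to chromatin when the nucleus reforms after mitosis, had 0.11 (133 against 123 CPM).

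The inner ring ties the scaffold to the membrane and to the channel. Of its 5 members, 2 were above 0 and 3 below, with a median of -0.01. Nup93, the linker that anchors the channel nucleoporins, had a log2 fold change of 0.19 (38.6 against 33.8 CPM). The large subunits Nup188 and Nup205 had 0.10 (67.8 against 63.2 CPM) and -0.05 (104 against 108 CPM), and Nup155 had -0.01 (68.5 against 68.8 CPM). Nup35, which can contact the membrane, had 13.5, 12.0 and 12.7 CPM among OgaVav-Cre mice and 18.6, 11.05 and 11.4 CPM among wildtype mice. Its wildtype replicate 1 was the highest and the 2 other wildtype libraries were the lowest of the 6. This gave a log2 fold change of -0.10 (-0.64 to 0.44).

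The central channel holds Nup62, Nup54 and Nupl1 (Nup58), which form 1 trimeric complex and carry the repeats counted above. Nup62, a founding example of an O-GlcNAc-modified pore protein, had 126, 121 and 110 CPM among OgaVav-Cre mice and 116, 71.2 and 81.3 CPM among wildtype mice. Wildtype replicate 1 fell inside the OgaVav-Cre range and the other 2 wildtype libraries below it. Its log2 fold change of 0.41 (-0.03 to 0.84) was the largest upward among the members, with an unadjusted p of 0.0651 and an adjusted p of 0.492 in edgeR. Nupl1 had 64.7, 69.2 and 69.9 CPM against 71.9, 55.8 and 57.1 CPM and a log2 fold change of 0.14 (-0.17 to 0.45). Nup54 had 23.7, 22.04 and 23.4 CPM against 26.6, 20.0 and 26.1 CPM, with -0.07 (-0.43 to 0.29). The partners of the trimer thus gave point estimates on both sides of 0, each with an interval that includes it. Nup62cl, a shorter relative of Nup62, was the member that the filter left out. It had 0 reads in every OgaVav-Cre library and 1, 0 and 0 reads in the wildtype libraries, where 3 reads correspond to 0.109 to 0.156 CPM.

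The deposited counts may not assign the reads at Nup62 to it alone. The locus, at chr7:52071458-52087203 on the plus strand, has 2 exons, and the locus Il4i1 as listed starts at the same base and continues downstream. Il4i1 had 2870, 3102 and 3288 reads among OgaVav-Cre mice and 2557, 1395 and 2117 among wildtype mice, close to the 2831, 3052 and 3014 and the 2485, 1373 and 1922 reads of Nup62. The third locus, Nup62-il4i1, had 179, 187 and 374 against 184, 74 and 205 reads, and Atf5 overlaps the 5' end on the opposite strand with 775, 471 and 277 against 310, 253 and 211 reads. Il4i1 is listed at 6836 bases against 3743 for Nup62, so the longer locus had close to the same reads. How reads in shared sequence were assigned is not stated. The library kit does not mark strand. Of all 31 members, 18 overlapped another listed locus, and for 13 of them such a locus had at least 10% of the member's reads. Overlap was judged from the spans of the loci, introns included, and the reads that loci share were not counted.

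Nucleoporins of the cytoplasmic face and of mRNA export gave 2 members above 0 and 5 below, with a median of -0.03. Nup98, which binds the export factor Rae1 and whose gene also encodes the scaffold protein Nup96, had 116, 122 and 114 CPM among OgaVav-Cre mice and 114, 85.2 and 95.5 CPM among wildtype mice. This gave a log2 fold change of 0.26 (-0.06 to 0.57), with an unadjusted p of 0.0979. As for Nup62, wildtype replicate 1 was within the OgaVav-Cre range. Nup214, the docking site of the exportin Xpo1, had 71.3, 73.4 and 69.7 CPM against 85.4, 60.7 and 73.4 CPM, with a log2 fold change of -0.03 (-0.36 to 0.29). Ranbp2 (Nup358), a SUMO ligase that holds Rangap1 at the pore, had 263, 321 and 290 CPM against 326, 232 and 256 CPM, with 0.10 (-0.28 to 0.48). For both genes the wildtype libraries gave the highest and the lowest value of the 6. Nupl2, which works with the export factor Gle1, had 9.05, 11.4 and 7.63 CPM against 12.2, 10.9 and 10.4 CPM, with -0.26 (-0.74 to 0.22). Aaas (aladin), the gene of triple A syndrome, had 25.7, 24.6 and 24.8 CPM against 31.0, 20.6 and 28.9 CPM, with -0.10 (-0.51 to 0.31). Nupl2 was the member of this group with the lowest point estimate, and its OgaVav-Cre replicate 2 was above 2 of the 3 wildtype libraries. Nup88, the partner of Nup214, had -0.04 (54.4 against 56.0 CPM), and Rae1 had -0.01 (36.6 against 36.8 CPM).

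In the nuclear basket, 2 members were above 0 and 1 below, with a median of 0.07. Nup153, which anchors the basket, had 139, 152 and 175 CPM among OgaVav-Cre mice and 179, 146 and 149 CPM among wildtype mice. The ranges overlapped, and the log2 fold change was -0.02 (-0.36 to 0.31). Tpr, the main component of the basket fibres, had 0.07 (216 against 206 CPM) and Nup50, which aids the release of imported cargo, had 0.11 (106 against 98.5 CPM).

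Among the membrane nucleoporins, Pom121 had a log2 fold change of 0.02 (114 against 113 CPM). Nup210 (gp210), another pore membrane anchor, had 301, 297 and 318 CPM among OgaVav-Cre mice and 374, 263 and 328 CPM among wildtype mice. The log2 fold change of Nup210 was -0.07 (-0.43 to 0.28). Nup210l, its low paralog, had 16, 12 and 41 reads among OgaVav-Cre mice and 43, 27 and 59 reads among wildtype mice. These are 0.709, 0.475 and 1.496 CPM against 2.01, 1.40 and 2.496 CPM. The highest OgaVav-Cre library was above the lowest wildtype one. The log2 fold change of -1.13 (-2.29 to 0.03) was the largest of all members in either direction, with an unadjusted p of 0.0545 and an adjusted p of 0.480 in edgeR. At this depth the interval includes 0 as well as the cutoff of -1.

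Levels differed far more between nucleoporins than between genotypes. Compared per length, in the deposited RPKM, 10 of the tested members had a mean of at least 10 in both genotypes, 19 were between 1 and 10, and 1, Nup210l, was under 1. The highest levels were those of Nup210 (24.7 ± 1.91 RPKM in OgaVav-Cre and 27.3 ± 5.17 in wildtype, SD, n = 3) and Nup62 (26.9 ± 1.04 and 21.4 ± 5.84). Nup210 ranked first in wildtype and Nup62 first in OgaVav-Cre cells, and the ranges of both genes overlapped in each genotype. Ranbp2, Nup50 and Seh1l followed at 17.4 to 18.0 RPKM, and Tpr at 16.7 RPKM in both genotypes. The lowest levels above Nup210l were 1.18 ± 0.255 and 1.48 ± 0.125 RPKM for Nupl2 and 3.77 ± 0.146 and 4.25 ± 1.35 RPKM for Nup35.

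**Figure D2:**
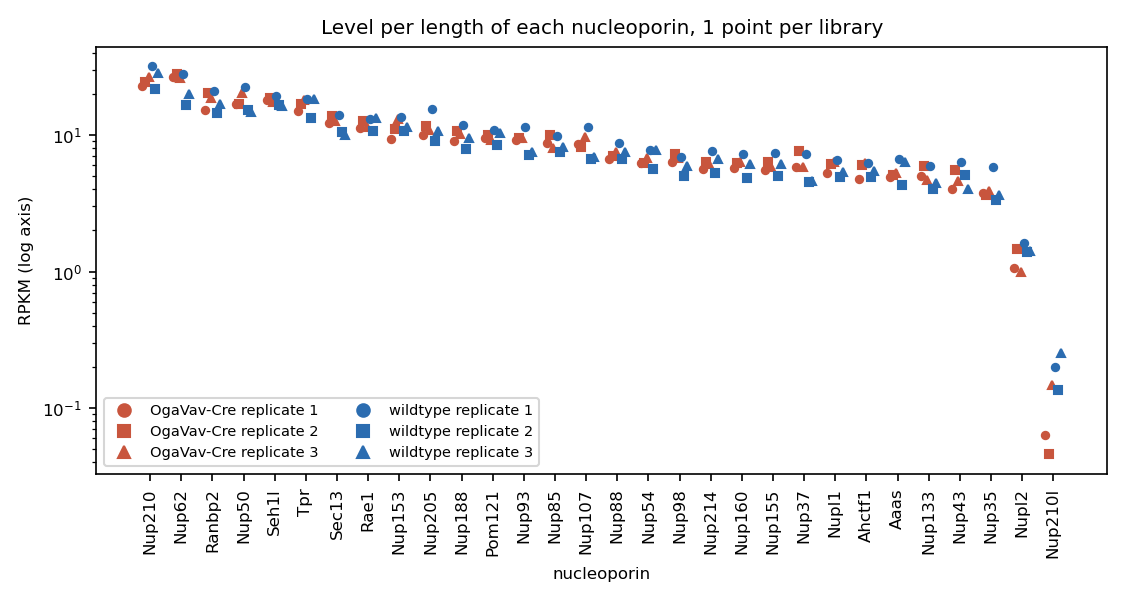
The deposited RPKM of each tested nucleoporin is plotted on a log axis with 1 point per library, ordered by the mean of the 6 libraries. The genotypes are intermixed from Nup210 down to Nupl2, and Nup210l lies under 1 RPKM in every library.

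Members with many and with few FG pairs, counted without regard to length, were set side by side. The 11 members with 5 or more pairs had a median log2 fold change of 0.02, with 6 above 0. The 19 tested members with fewer pairs had a median of 0.08, with 11 above 0. The list of FG-repeat nucleoporins taken from general knowledge, which has Nup35 in place of Nup210, also gave 6 of 11 above 0 and a median of 0.02. Over the 7 FG nucleoporins best known to carry O-GlcNAc (Nup62, Nup54, Nupl1, Nup98, Nup153, Nup214 and Ranbp2), the median was 0.10, with 4 above 0 and 3 below. Nup214 and Nup98, with the most pairs, stood at -0.03 and 0.26.

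**Figure D3:**
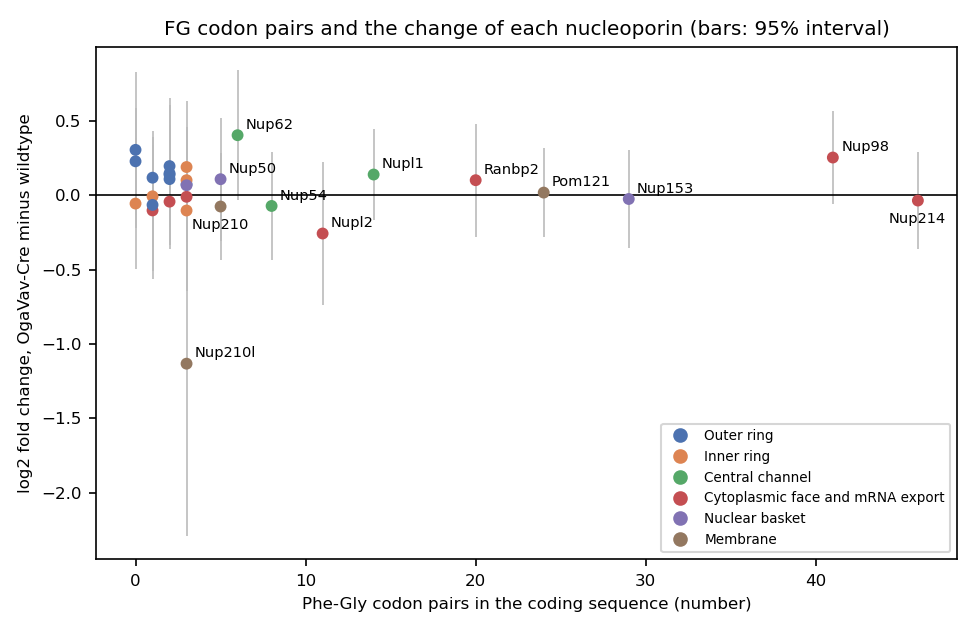
The log2 fold change of each tested nucleoporin, with its 95% interval, is plotted against the number of FG codon pairs in its coding sequence, coloured by place in the pore. Members with 5 or more pairs run from -0.26 for Nupl2 to 0.41 for Nup62, and those with 0 to 3 pairs from -0.10 for Nup35 to 0.31 for Nup37, apart from Nup210l at -1.13.

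The nucleoporins varied together from mouse to mouse, and more so among wildtype than among OgaVav-Cre mice. The coefficient of variation over the 3 libraries had a median of 6.12% in OgaVav-Cre and 18.0% in wildtype cells over the tested members, and it was smaller in OgaVav-Cre for 27 members and larger for 3. Over all loci with at least 10 CPM the same medians were 12.1 and 12.7%. They were 8.17 and 13.7% over the 45 nuclear transport genes counted below. A lower spread in OgaVav-Cre was thus not particular to nucleoporins. The share of all loci with a smaller value in OgaVav-Cre was not counted. The wildtype spread ran in 1 direction for nearly all members. Wildtype replicate 1 was above the mean of the 6 libraries for 30 of 30 members and was the highest library for 21, where it was the highest for 14.6% of all loci. Wildtype replicate 2 was below that mean for 28 and was the lowest library for 21, where it was the lowest for 16.7% of all loci. Wildtype replicate 3 was below the mean for 21. The OgaVav-Cre libraries lay between, with 15, 21 and 16 members above the mean.

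**Figure D4:**
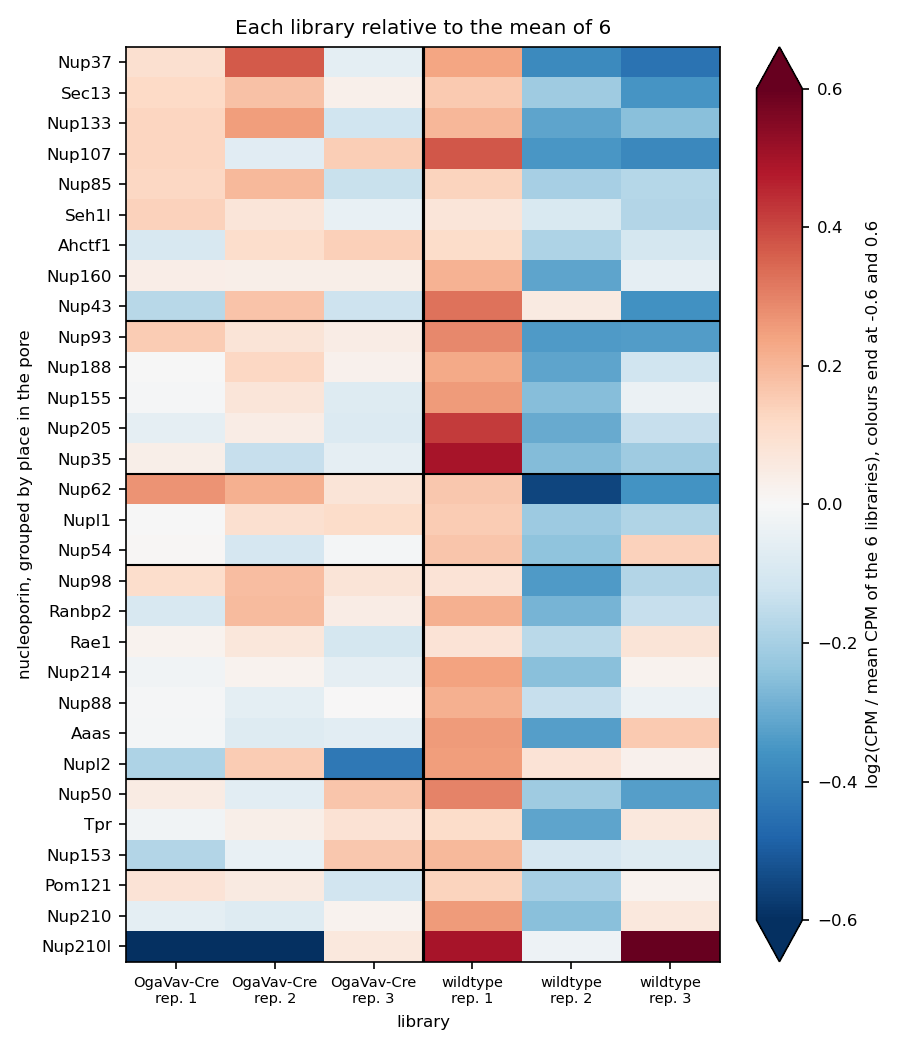
Each cell shows the log2 ratio of a nucleoporin's CPM in 1 library to its mean over the 6 libraries, with rows grouped by place in the pore and colours that end at -0.6 and 0.6. The column of wildtype replicate 1 is above the mean in all 30 rows and that of wildtype replicate 2 is below it in 28.

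Summed over the tested members, the nucleoporins had 2458, 2567 and 2511 CPM in OgaVav-Cre libraries, 2512 ± 54.6 (SD, n = 3). In wildtype libraries they had 2826, 2061 and 2306 CPM, 2398 ± 391 (SD, n = 3). The wildtype values thus lay on both sides of all 3 OgaVav-Cre values. Genes of proliferating cells moved in the same way. For 12 such genes (Mki67, Top2a, Pcna, Mcm2 to Mcm7, Ccna2, Ccnb1 and Cdk1), a list written after the spread of the nucleoporins had been seen, the sums were 2540, 2656 and 2597 CPM among OgaVav-Cre mice and 3515, 1640 and 1932 CPM among wildtype mice. Both sums put the 6 libraries in the same order, and 10 of the 12 genes were highest in wildtype replicate 1. None of the 12 had an unadjusted p below 0.05 between the genotypes. The share of reads on Ighm, Igkc and Igj, transcripts of plasma cells, was 9.88, 4.14 and 1.17% among OgaVav-Cre mice and 2.05, 5.48 and 1.36% among wildtype mice, which is another order. The part of either measure in the spread of the nucleoporins was not tested.

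This spread bears on the comparison of the genotypes, since leaving out 1 wildtype library moves the members' values in either direction. Wildtype replicate 1 was above the mean of the 6 libraries for all 30 members, so leaving it out raises their fold changes. Without it, 28 of 30 nucleoporins were higher in OgaVav-Cre cells, a direction that is thus no separate result. The median log2 fold change was 0.19, against 0.00 over all loci in that fit. In the same fit, 9 members had an unadjusted p below 0.05 in edgeR, where 14.5% of all loci did. These were Nup62 (0.64 on the log2 scale), Nup37 (0.56), Nup107 (0.44), Nup93 (0.43), Sec13 (0.39), Nup133 (0.38), Nup98 (0.38), Nup50 (0.33) and Nupl1 (0.27), all higher. None of the 9 had an adjusted p below 0.05 in edgeR, the lowest being 0.211 for Nup62. Without wildtype replicate 2 the median turned to -0.04, with 13 members above 0 and 17 below. The median of 0.07 with all 6 libraries is smaller than the distance between wildtype replicates 1 and 2, whose median log2 ratios to the mean of the 6 libraries were 0.21 and -0.25 over the members.

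**Figure D5:**
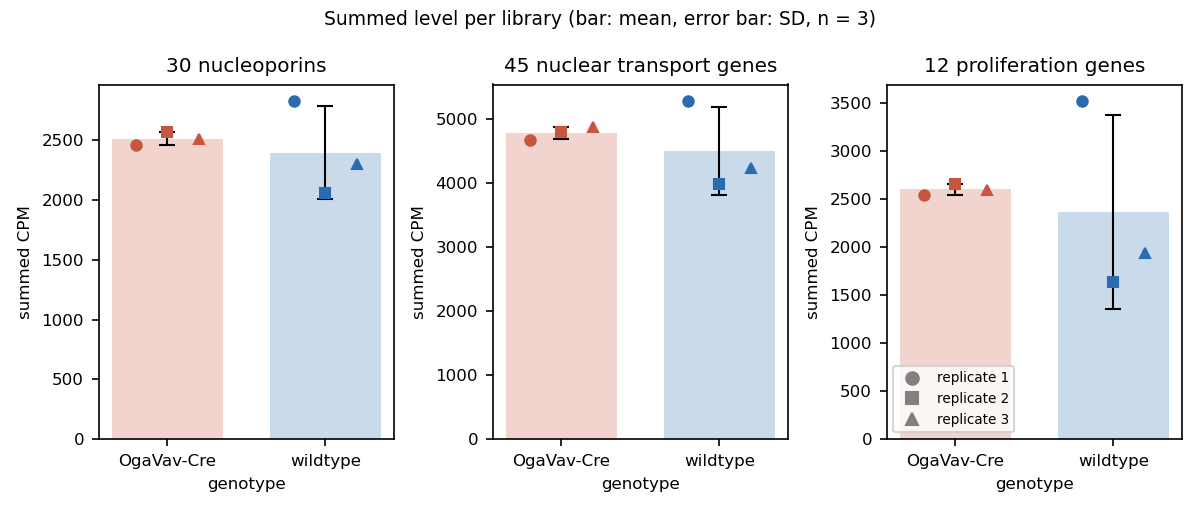
CPM summed over the 30 tested nucleoporins, over 45 nuclear transport genes and over 12 proliferation genes are shown for each library as points, with the mean of each genotype as a bar and the SD as an error bar (n = 3). In each panel wildtype replicate 1 is the highest and wildtype replicate 2 the lowest library, and the OgaVav-Cre libraries lie close together between them.

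The genes that work with the pore were counted in the same fit. The list held 46 symbols, for import and export receptors, the Ran cycle, mRNA export, SUMO cycling at the pore and the lamina. It also held Tmem48, itself a nucleoporin of the pore membrane, which the symbol rule for members does not take. Ndc1, another symbol of Tmem48, was listed too and matched no locus. The other 45 were found and tested. At both cutoffs 0 of 45 were called (0.0318% of all loci), and at an unadjusted p below 0.05 in edgeR 0 of 45 were found (10.6% of all loci). The log2 fold change was above 0 for 24 and below 0 for 21, with a median of 0.02 and a range from -0.30 for Nxf1, the main mRNA export receptor, to 0.56 for Lmna, which encodes lamins A and C. The transport genes had 4679, 4806 and 4873 summed CPM among OgaVav-Cre mice and 5277, 3986 and 4230 among wildtype mice. Wildtype replicate 1 was the highest library for 21 of the 45 genes and wildtype replicate 2 the lowest for 18. Without wildtype replicate 1, 11 of 45 transport genes had an unadjusted p below 0.05, against 14.5% of all loci, all 11 higher in OgaVav-Cre cells. Leaving out a library that was the highest for 21 of the 45 raises fold changes, so this direction is no separate result either.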

How the data were processed

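Poly(A) RNA-Seq libraries of LSK cells from 3 OgaVav-Cre and 3 wildtype mice were used, grouped by their labels. The authors aligned single-end 50 bp reads to mm9 and used Genomatix to summarize them by locus (CASAVA 1.8.2 is named in the submitters' processing notes). The versions of the aligner, the counting and the annotation are not given in the sources used here. The deposited counts are raw reads for each locus in each library. The deposited RPKM divide them by locus length and by 1 total per library, as computed by the authors. The table also holds the authors' fold changes and p-values, which were not used.

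The counts were fitted with edgeR 4.0.16 in R 4.3.3 (TMM, filterByExpr, glmQLFit and glmQLFTest with legacy = TRUE, Benjamini-Hochberg adjustment over all 22032 loci that passed the filter). Intervals are 95% intervals of the fitted log2 fold change. CPM are reads scaled to the TMM-adjusted library size, and 3 reads correspond to 0.109 to 0.156 CPM, for counting error only. FG codon pairs were counted in GENCODE coding sequences of mm9, in transcripts with a start codon and whole codons, with Python 3.11.15 and pandas 2.3.3, and figures were drawn with matplotlib 3.10.9. The test was checked on simulated data, in which the loci varied independently and with the same dispersion. The joint spread of the nucleoporins over the libraries was not simulated.

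Every member is named. Values per library are given for the 5 members with the largest change in each direction, the 7 FG nucleoporins best known for O-GlcNAc, and the member left out by the filter. The members, the groups and the lists were chosen with earlier results of these data known. The 12 proliferation genes, the other members and loci named for overlap, and the members named without wildtype replicate 1 were chosen after their values were seen.

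Alternatives were the Wald test of DESeq2 1.42.0, its size factors in edgeR, all loci without a filter, a floor of 10 reads for each library, limma-voom and limma-trend on RPKM (limma 3.58.1, pseudocounts of 0.1 and 1), legacy = FALSE, the replicate number as a block, immunoglobulin loci left out or their share as a covariate, and each library left out. Leaving out all immunoglobulin loci was added after seeing the data. Protein sequences were not used here.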

Additional observations from a re-analysis of the deposited data

How the results depend on the processing

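No nucleoporin and no transport gene passed both cutoffs under any of the 18 alternatives, and 0 of the 540 member values had an adjusted p below 0.05. The median log2 fold change of the nucleoporins stayed between 0.01 and 0.10 under the 12 alternatives that keep all libraries, and between -0.04 and 0.19 with 1 library left out. At an unadjusted p below 0.05 there were 0 members in the main analysis. There were 2 with no filter on low counts (7.9% of all loci in that fit), 1 with at least 10 reads in every library (11.4%), 1 with DESeq2's Wald test (6.72%), 2 with limma-voom (10.9%) and 1 with legacy = FALSE (11.2%), and 0 to 9 with 1 library left out (5.39 to 14.5%). These were Nup62 or Nup210l in each case but the last. The fold change changed its sign in 35 of 540 values, in 16 members, none of which was past 0.11 in size in the main analysis. With all libraries kept, Nup155 turned to 0.00783 with DESeq2's size factors, 0.000295 with no filter, 0.00841 with the Wald test, 0.00626 with limma-voom, 0.00759 with the replicate block and 0.0236 with the immunoglobulin share as a covariate. The covariate also turned Nup153 (0.0467) and Nup214 (0.00254). Rae1 turned with the size factors (0.00464) and the Wald test (0.00532), and Pom121 with RPKM at pseudocounts of 0.1 (-0.0449) and 1 (-0.0417). When each library was omitted in turn, Aaas ran from -0.253 to 0.0172, Nup153 ran from -0.117 to 0.0786, Nup155 ran from -0.114 to 0.142, Nup160 ran from -0.0398 to 0.219, Nup188 ran from -0.00615 to 0.267, Nup205 ran from -0.186 to 0.192, Nup210 ran from -0.194 to 0.0499, Nup214 ran from -0.146 to 0.0936, Nup35 ran from -0.224 to 0.187, Nup43 ran from -0.229 to 0.11, Nup50 ran from -0.0119 to 0.326, Nup54 ran from -0.185 to 0.00302, Nup88 ran from -0.109 to 0.0667, Pom121 ran from -0.0618 to 0.0973, Rae1 ran from -0.0802 to 0.042 and Tpr from -0.0483 to 0.149. All loci past both cutoffs numbered 7 in the main analysis and 3 to 115 in the alternatives, the highest with the Wald test. The replicate number as a block gave 2 of 30 nucleoporins and 3 of 45 transport genes at an unadjusted p below 0.05, against 12.4% of all loci. Deviations of same-numbered libraries correlated at -0.09, 0.31 and 0.38, and those of differently numbered libraries at -0.44 to 0.26. These values do not settle whether the numbers pair the mice. The labels do not state a pairing, and the main fit has no block. The causes of these changes were not tested. Limits are 3 mice per genotype and a wildtype spread in which replicate 1 stands high and replicate 2 stands low. Others are low counts of Nup210l and Nup62cl, and reads that may be shared with overlapping loci.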
